A study of Mus musculus with 6 samples.

Results

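The genes that encode the proteins of the cytoplasmic ribosome were examined in mouse embryonic stem cells (mESCs) kept with LIF, with OSM or with neither. Members were chosen by symbol alone: Rps or Rpl followed by a number and at most the endings a, x, l or l1, with Rplp0, Rplp1, Rplp2 and Rpsa added and symbols containing -ps left out. This gave 86 of the 28584 gene symbols in the deposited table, of which 33 belong to the small subunit (with Rpsa), 50 to the large subunit and 3 to the stalk of the large subunit. GENCODE annotates 82 of them as protein-coding and 4 as processed pseudogenes, namely Rps4l, Rps12l1, Rpl6l and Rpl32l. The rule left out 193 symbols with -ps and did not take ribosomal proteins under other names, such as Rps3a1, Fau and Rpl36al, whose values stand below.

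The cells were 1 mESC line from a C57BL/6 × 129S6 blastocyst, which all 3 groups share. The line had been grown on mitomycin C-inactivated embryonic fibroblast feeders in serum and LIF before it was moved to the test media. LIF-ESCs then received 1000 U/mL LIF, OSM-ESCs received 10 ng/mL OSM in its place, and -LIF-ESCs received neither, and RNA was taken at passage 10. Each group has 2 libraries of polyA RNA, and nothing in the labels says that they came from separate cultures, so p-values measure only the spread between these libraries. The labels' extraction text names ovaries, whereas every other field names embryonic stem cells. Pluripotency markers summed to 3615 and 3723 TPM (transcript abundance, defined below) in the LIF libraries, 3368 and 3423 in the OSM libraries and 2030 and 2050 in the others, with none of the 10 markers at 0 in a whole group. In the test described below, 8 of the 10 were higher and 2 lower with LIF than without cytokine (42.2% and 25.9% of all genes). The counts were the same with OSM (42.9% and 25.4%), and Dppa3 had the lowest log2 fold change with either. In OSM against LIF, 1 marker was lower and 0 higher (0.129% and 0.463%). Below, values are given as without cytokine, with LIF and with OSM for these groups.

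Each ribosome contains 1 copy of most of these proteins, and the cell makes them in matched amounts, adjusting supply mainly at translation through a pyrimidine tract at the start of their mRNAs. The genes are among the most strongly expressed in growing cells. Their short, abundant mRNAs have also been copied back into the genome many times as intronless processed pseudogenes, which can be almost identical in sequence to the gene itself. A few members have paralogs that are expressed in particular tissues, such as Rpl39l and Rpl10l in the testis and Rpl3l in muscle.

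The sequences that follow show how close such copies are, because several of the largest changes described below concern genes with a copy of this kind. The first pairs set 120 bases of the coding sequence of a gene beside the same stretch of the copy with the most reads over all libraries. Capitals mark the bases that differ. All were read from the GENCODE M21 transcripts (GRCm38, the assembly also called mm10).
Rpl34, coding bases 115 to 234: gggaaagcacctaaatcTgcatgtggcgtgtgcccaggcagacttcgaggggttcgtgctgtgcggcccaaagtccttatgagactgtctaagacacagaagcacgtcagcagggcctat
Rpl34-ps1: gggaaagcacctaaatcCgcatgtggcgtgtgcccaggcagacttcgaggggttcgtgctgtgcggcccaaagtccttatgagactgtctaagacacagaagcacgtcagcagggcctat
Rplp0, coding bases 415 to 534: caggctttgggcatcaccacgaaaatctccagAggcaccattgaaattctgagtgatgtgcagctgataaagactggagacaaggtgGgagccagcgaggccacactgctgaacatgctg
Gm8730: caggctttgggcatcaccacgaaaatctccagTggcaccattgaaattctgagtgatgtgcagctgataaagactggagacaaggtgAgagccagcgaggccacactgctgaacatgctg
Rpl29, coding bases 181 to 300: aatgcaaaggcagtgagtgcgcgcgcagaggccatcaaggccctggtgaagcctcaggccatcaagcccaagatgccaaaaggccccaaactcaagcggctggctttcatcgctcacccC
Gm13841: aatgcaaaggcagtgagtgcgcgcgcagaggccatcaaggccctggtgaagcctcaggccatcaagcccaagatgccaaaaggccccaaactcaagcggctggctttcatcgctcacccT

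Over the whole coding sequence, Rpl34 and Rpl34-ps1 were identical at 349 of 351 bases (99.4%), Rplp0 and Gm8730 at 939 of 951 (98.7%), and Rpl29 and Gm13841 at 477 of 480 (99.4%). Rpl30 and its copy Gm12191 were identical at 344 of 345 bases (99.7%) and did not differ at all between coding bases 112 and 231. The copies lie far from the genes: Rpl34 is on chromosome 3 and Rpl34-ps1 on chromosome 6, Rplp0 on 5 and Gm8730 on 8, Rpl29 on 9 and Gm13841 on 5, and Rpl30 on 15 and Gm12191 on 11. A paralog with its own function is more distant, as the whole coding sequence of Rpl39, on the X chromosome, and of Rpl39l, on chromosome 16, shows.
Rpl39: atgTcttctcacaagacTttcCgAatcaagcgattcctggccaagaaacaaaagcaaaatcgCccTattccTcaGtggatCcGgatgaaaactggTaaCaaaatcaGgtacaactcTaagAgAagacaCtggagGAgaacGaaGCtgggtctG
Rpl39l: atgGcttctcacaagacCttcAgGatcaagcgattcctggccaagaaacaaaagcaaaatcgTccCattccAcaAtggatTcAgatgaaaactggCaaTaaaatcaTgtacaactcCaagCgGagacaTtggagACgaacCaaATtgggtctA
These differ at 23 of 153 bases (85.0% identity). Of the 100-base stretches of Rpl39l, 100% occurred in no other annotated transcript outside its own locus. By the same measure, the share was 96.0% for Rpl34, 95.1% for Rpl30, 86.04% for Rplp0 and 76.8% for Rpl29. The coding stretches printed above thus do not show how much of each whole gene is shared with its copies. The shares count stretches from all annotated transcripts of a gene, also outside the coding sequence. Any base that differs makes a stretch count as unshared. They therefore do not say how many reads of an mRNA can be told from those of a copy.

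TPM is reads per exon length, scaled so that every library has 1 total, so a change of abundant genes moves all others. The length that gave whole reads was that of all annotated exons of a gene together, which can exceed that of its mRNA. Levels, shares and sums that set different genes side by side therefore depend on the annotation. Reads were recovered from the TPM steps and came to between 20712939 and 28994418 per library, of which members took 1355229 to 1817158. Per library the members summed to 96640 and 98448 TPM without cytokine (9.66% and 9.85% of the total), 88832 and 90029 with LIF and 89709 and 89076 with OSM. The means were 97544 ± 1279 TPM (SD, n = 2) without cytokine, 89431 ± 846 with LIF and 89392 ± 448 with OSM, so both -LIF libraries lay above all 4 others. Each sum is a share of the TPM total, which is scaled by exon length. Of the recovered reads, members took 7.28% and 7.33% without cytokine, 6.08% and 6.20% with LIF and 6.03% and 6.17% with OSM. Annotated small RNAs held 22.8% and 22.4% of TPM without cytokine and 20.0% to 22.0% in the other libraries. Fewer cells of a type and less RNA per cell cannot be told apart in bulk samples.

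The subunits did not move alike. Large subunit genes without the stalk summed to 54039 ± 1080 TPM without cytokine, 45110 ± 407 with LIF and 44655 ± 313 with OSM. On the TPM scale, small subunit genes stayed within a narrow range, at 34558 ± 396, 33859 ± 430 and 33806 ± 379 TPM in the same order. The libraries of -LIF (34278 and 34838) and LIF (33555 and 34163) lay side by side without overlap. The narrow range depends on the scaling. With the median ratio, described below, 21 of the 33 genes were lower with LIF (median log2 fold change -0.20), against 33.0% of all genes. The summed stalk genes ran the other way, from 8947 ± 197 TPM without cytokine to 10461 ± 8.84 with LIF and 10931 ± 245 with OSM. Of the 3 stalk genes only Rplp0 passed the test with LIF. Its log2 fold change was 0.77 for the gene alone and 0.17 with the reads of its copies added, as described below. The ratio of large subunit and stalk to small subunit TPM was 1.82 and 1.83 in the -LIF libraries, 1.65 and 1.64 with LIF and 1.63 and 1.66 with OSM. The sums and the ratio were not tested, since an exact test of 2 libraries against 2 cannot reach an ordinary threshold.

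**Figure D1:**
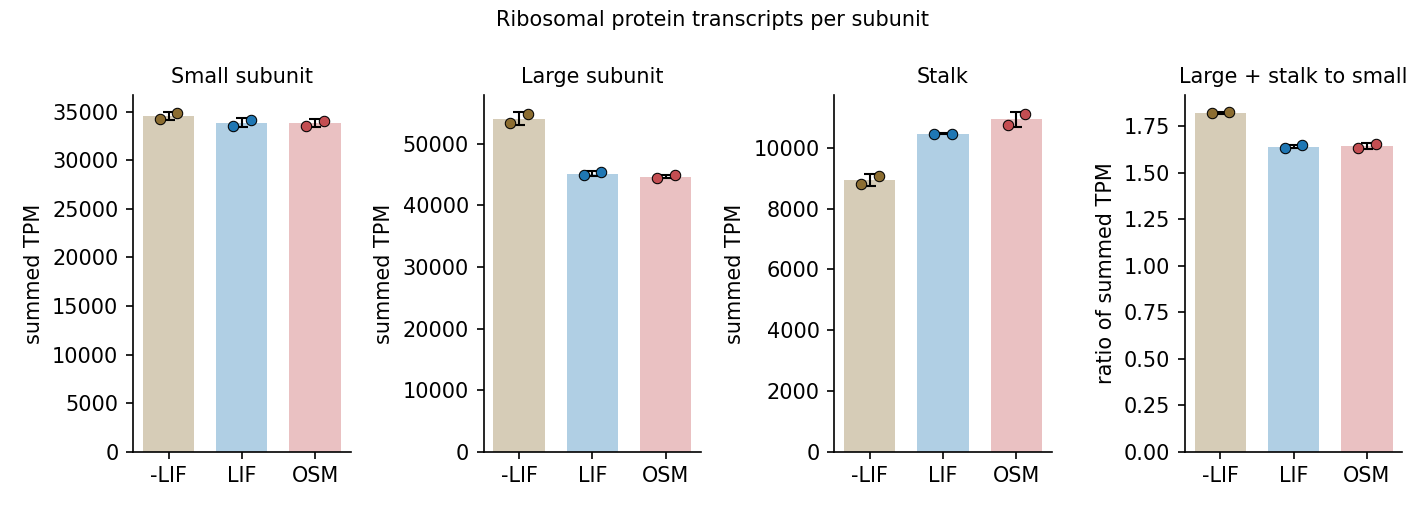
Summed TPM of the small subunit, large subunit and stalk genes, and the ratio of large subunit and stalk to small subunit, in each group. Bars are means, error bars the SD and points the lower and the higher of the 2 libraries; the large subunit stood at 54039 TPM without cytokine against 45110 with LIF, and the ratio at 1.82 against 1.64.

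Single members spanned more than 3 orders of magnitude. Rplp1, a stalk protein, was highest, with 6642 and 6346 TPM without cytokine, 6806 and 6820 with LIF and 6987 and 7359 with OSM. Rpl36, Rpl8, Rps2 and Rpl23a followed it by mean level, between 2187 and 3675 TPM in every library. The lowest were Rpl3l at 0.94 to 1.27 TPM, the pseudogenes Rpl32l at 2.40 to 6.42 and Rps12l1 at 5.17 to 7.44, Rpl39l at 5.46 to 44.4 and Rpl10l at 20.2 to 29.9. The median member stood at 880 and 979 TPM in the -LIF libraries and at 770 to 825 in the others. The 2 libraries of a group lay under 10% apart for 77 members without cytokine, 82 with LIF and 72 with OSM. All 86 members had at least 1 TPM in at least 2 libraries and entered the test.

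The comparison of LIF-ESCs with -LIF-ESCs asks which ribosomal protein transcripts differ between cells kept in the stem cell state and cells left to differentiate. With limma on log2(TPM + 1) and Benjamini-Hochberg adjustment over the 18556 genes tested, 14 members were higher with LIF and 40 lower (adjusted p under 0.05). Of all the genes, 42.2% were higher and 25.9% lower. At least 2-fold, 3 members were higher and 3 lower, against 13.3% and 8.09% of all genes. The median log2 fold change of the members was -0.08 and that of all genes 0.17. The all-gene median moved to 0.02 when libraries were rescaled by the median ratio, and with that scaling 11 members were higher and 63 lower (34.5% and 33.0% of all genes), with a member median of -0.26. The libraries of the 2 groups did not overlap for 70 members, against 84.2% of all genes.

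By subunit, 29 of 50 large subunit genes were lower with LIF and 8 higher, with a median log2 fold change of -0.17. Of the 33 small subunit genes, 11 were lower and 5 higher, with a median of -0.03, and the remaining 17 did not pass the test. These counts depend on the scaling: with the median ratio 21 small subunit genes were lower and 3 higher (median -0.20), and 41 large subunit genes lower and 7 higher (median -0.35). Voom called 23 small subunit genes lower and 3 higher (median -0.16), where 32.8% of all genes were lower and 37.8% higher. Of the stalk genes, Rplp0 alone was higher, while Rplp1 and Rplp2 did not pass. For OSM-ESCs against -LIF-ESCs, 16 members were higher and 39 lower, against 42.9% and 25.4% of all genes, and 3 and 4 were so at least 2-fold (14.2% and 7.86%). The member median was -0.09 and the all-gene median 0.18. Rescaled by the median ratio, 8 were higher and 66 lower (34.4% and 32.9%). This comparison shares its -LIF libraries with the one before. Its values are therefore given beside those of LIF for the same genes, and the libraries of its groups did not overlap for 66 members (83.9% of all genes).

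**Figure D2:**
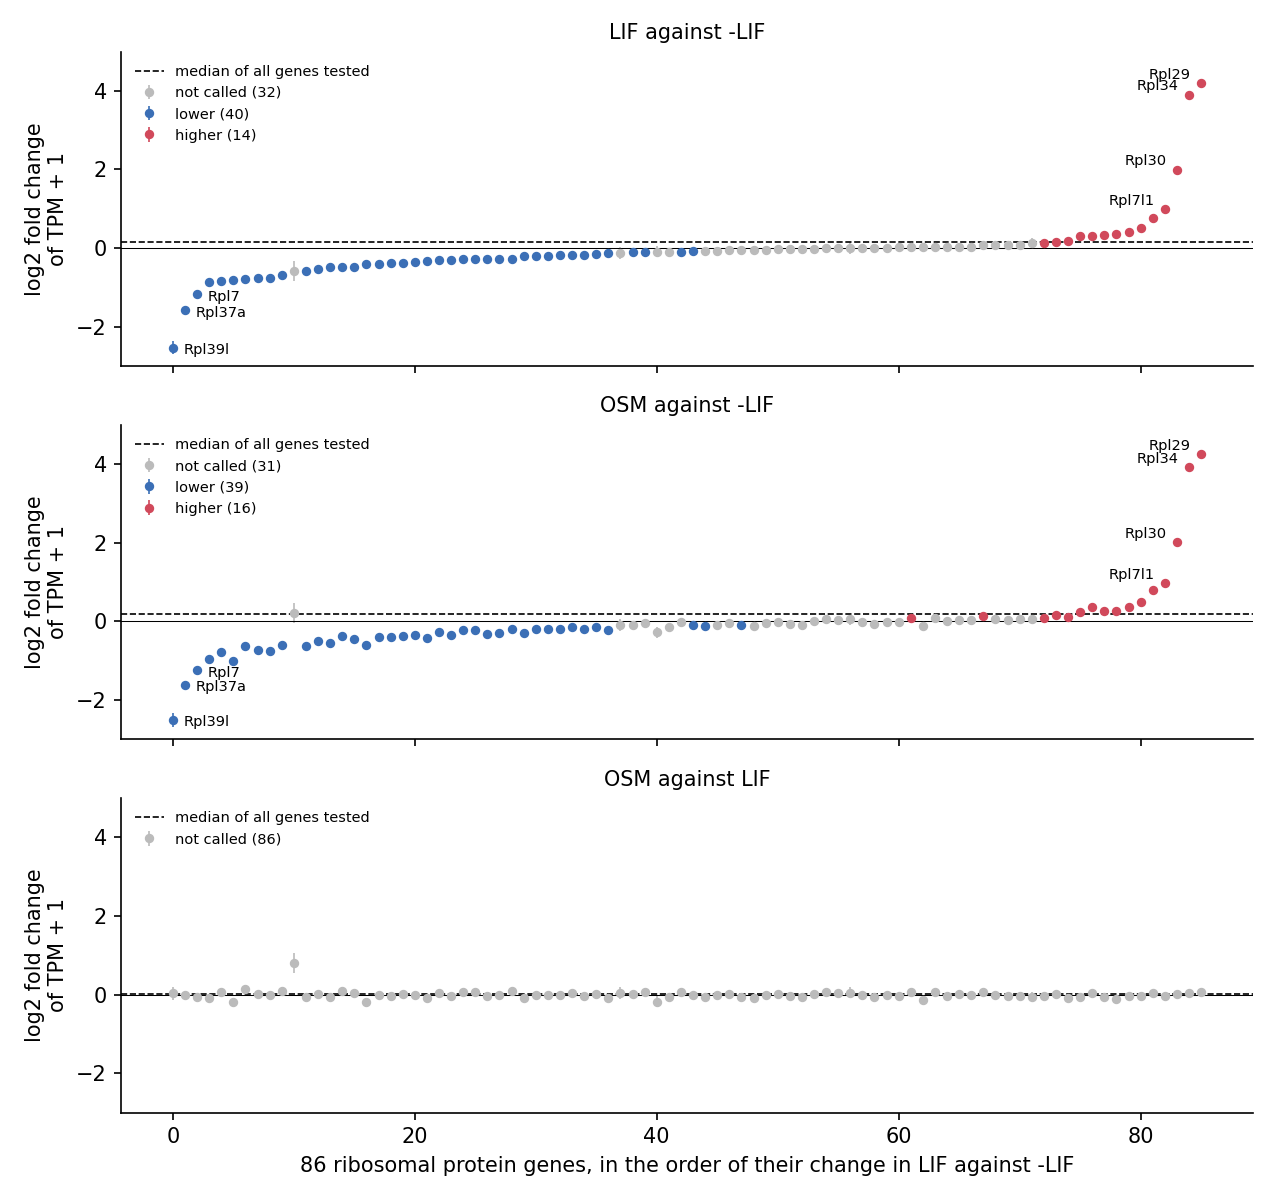
Log2 fold change of TPM + 1 for the 86 members in each comparison, with standard errors, in the order of LIF against -LIF. Red and blue mark members higher and lower at an adjusted p under 0.05 and the dashed line is the median of all genes tested; Rpl29 and Rpl34 stand near 4, Rpl39l near -2.5, and no member passed in OSM against LIF.

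Among the large subunit genes that were higher with a cytokine, Rpl29 and Rpl34 changed most. Rpl29 (chr9:106429454-106431568, plus strand) encodes a surface protein of the large subunit that binds heparin. It stood at 24.2 and 27.8 TPM without cytokine, 501 and 487 with LIF and 502 and 529 with OSM. Its log2 fold change was 4.20 ± 0.07 (SE; limma, adjusted p = 2.89e-06) with LIF, an 18.4-fold difference on the TPM + 1 scale, and 4.26 with OSM. Rpl34 (chr3:130726831-130730398, minus strand) stood at 18.6 and 17.5 TPM without cytokine, against 276 and 292 with LIF and 284 and 296 with OSM. This was a log2 fold change of 3.90 ± 0.05 (limma, adjusted p = 1.56e-06) for LIF and 3.93 for OSM. Rpl30 (chr15:34440505-34443640, minus strand), a protein that binds RNA at the interface of the subunits, had 68.5 and 71.3 TPM, then 278 and 286, then 297 and 274. Its log2 fold change was 1.99 ± 0.05 (limma, adjusted p = 6.61e-06) for LIF and 2.01 for OSM. In all 3 genes both -LIF libraries lay far below the 4 others, and the LIF and OSM libraries lay close together. These values count the gene alone; with the reads of its copies added, Rpl29 had 1.74, Rpl34 0.16 and Rpl30 0.31 for LIF, as described below.

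Rplp0 (chr5:115559467-115563727, plus strand), the base of the stalk on which Rplp1 and Rplp2 sit, had 1663 and 1662 TPM without cytokine, 2859 and 2826 with LIF and 2921 and 2906 with OSM. Its log2 fold change was 0.77 ± 0.03 for LIF (limma, adjusted p = 1.63e-05) and 0.81 for OSM, and 0.17 and 0.19 with copies added. The other stalk genes moved less. Rplp1 had a log2 fold change of 0.07 for LIF (limma, adjusted p = 0.193) and 0.14 for OSM (adjusted p = 0.0271), the latter turning to -0.04 when rescaled by the median ratio. Rplp2 had 0.03 and 0.09 with adjusted p-values of 0.515 and 0.0521.

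Rpl7l1 (chr17:46773907-46782672, minus strand), a paralog of Rpl7 found in precursors of the large subunit, rose from 134 and 139 TPM without cytokine to 271 and 275 with LIF and 273 and 264 with OSM. The log2 fold changes were 0.99 ± 0.03 (limma, adjusted p = 1.62e-05) and 0.97. Rps13, Rpl13a, Rpl12, Rps2, Rpl3 and Rps27 were also higher in both comparisons, with log2 fold changes between 0.31 and 0.52 for LIF. These values count the gene alone. Copies of Rps13 held 36.2% to 37.9% of the reads without cytokine and 15.7% to 19.4% in the other libraries. In reads, Rps13 had 9781 and 8523 without cytokine and 11826 and 11691 with LIF. Its copies had 5981 and 4827 without cytokine and 2196 and 2595 with LIF, so the gene and its copies moved in opposite directions. With copies added, as described below, Rps13 was still called higher with either cytokine, whereas Rpl3 was not. Rps13, Rpl12 and Rpl10a are named after their values were seen. Rpl13a, which also takes part in silencing of inflammatory mRNAs, stood at 1575 and 1564, 2046 and 2135, and 2015 and 2053 TPM. With the median ratio Rpl12, Rpl3 and Rps27 lost the call for OSM, at 0.09, 0.07 and 0.06. Rpsa and Rpl10a were also called higher for LIF, at log2 fold changes of 0.15 and 0.19. When libraries were rescaled by the median ratio, the sign turned for Rpsa with either cytokine and for Rpl10a with OSM.

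**Figure D3:**
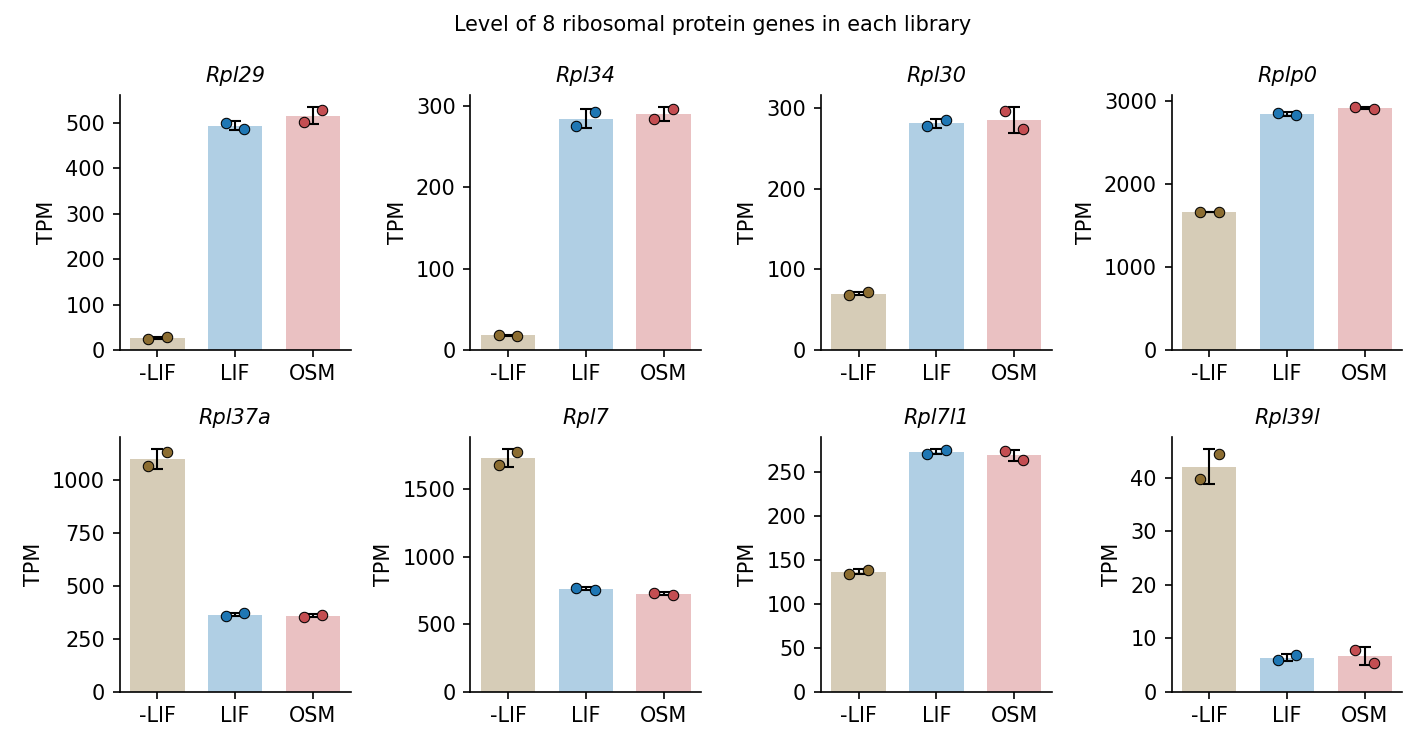
TPM of 8 members in each library, with bars for the mean and error bars for the SD of 2 libraries. Rpl29, Rpl34, Rpl30, Rplp0 and Rpl7l1 are low and Rpl37a, Rpl7 and Rpl39l high without cytokine, for example 1065 and 1131 TPM of Rpl37a against 355 to 370 in the other libraries.

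Among the members that were lower with a cytokine, Rpl37a, Rpl7 and Rpl39l changed at least 2-fold with either one. Rpl37a (chr1:72711290-72713813, plus strand), a zinc finger protein of the large subunit, had 1065 and 1131 TPM without cytokine, 359 and 370 with LIF and 355 and 363 with OSM. Its log2 fold change was -1.59 ± 0.04 (limma, adjusted p = 7.25e-06), a 3.01-fold lower value, and -1.61 for OSM. Rpl7 (chr1:16101295-16104662, minus strand) had 1682 and 1777 TPM, then 772 and 755, then 735 and 719. The log2 fold changes were -1.18 ± 0.04 (limma, adjusted p = 1.27e-05) and -1.25. For both genes the -LIF libraries stood above all others without overlap, and the order LIF above OSM was within 0.07 on the log2 scale.

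Rpl39l (chr16:10170226-10174911, plus strand), the paralog of Rpl39, a protein of the peptide exit tunnel, had 39.8 and 44.4 TPM without cytokine, 5.90 and 6.94 with LIF and 7.86 and 5.46 with OSM. These values rest on 374 and 343 reads without cytokine and 46 to 66 in the other libraries. The log2 fold changes were -2.54 ± 0.17 (limma, adjusted p = 0.000108) and -2.51. Rpl39 itself stayed between 518 and 627 TPM and did not pass, with -0.09 (limma, adjusted p = 0.227) and -0.15 (adjusted p = 0.0682). Rpl39l thus made up 6.47% of the TPM of the pair without cytokine, 1.11% with LIF and 1.20% with OSM.

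Rpl26, Rpl38, Rpl27, Rpl19, Rpl13 and Rpl31, all of the large subunit, were lower with LIF by less than 2-fold, with log2 fold changes between -0.87 and -0.68. Rpl19, Rpl13 and Rpl31 are named after their values were seen. Rpl26, which also binds the p53 mRNA, had 1747 and 1826 TPM without cytokine, 950 and 1002 with LIF and 914 and 932 with OSM. Rpl38, which is needed for translation of a set of Hox mRNAs in the embryo, had 1292 and 1530 TPM without cytokine, 795 and 808 with LIF and 749 and 653 with OSM. Its log2 fold changes were -0.81 ± 0.10 (limma, adjusted p = 0.00105) and -1.01 (adjusted p = 0.000461), and its 2 OSM libraries were as far apart as the OSM group was from LIF. Rpl23a was the lower one among the 5 most abundant members, at 3332 and 3520, 2306 and 2285, and 2187 and 2215 TPM (log2 fold change -0.58 and -0.64). Rpl36 and Rpl8 did not pass, with log2 fold changes of -0.01 and 0.02 for LIF.

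In the small subunit no member reached 2-fold in either direction. The lower ones included Rps6, the substrate of the S6 kinases, whose level was 2049 and 2096 TPM without cytokine, 1809 and 1865 with LIF and 1814 and 1779 with OSM. Its log2 fold changes were -0.17 (limma, adjusted p = 0.00521) and -0.21 (adjusted p = 0.00269). Rps27l, a p53 target and paralog of Rps27, had 613 and 623, 432 and 453, and 498 and 453 TPM, with -0.48 (limma, adjusted p = 0.000761) and -0.38 (adjusted p = 0.00192). Rps27 moved the opposite way, with 0.31 and 0.25.

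The other paralog pairs can be read as shares of the TPM of both genes. Rpl7l1 held 7.31% of its pair with Rpl7 without cytokine, 26.3% with LIF and 27.0% with OSM. Rps27l held 44.0%, 31.3% and 33.8% of its pair with Rps27. Rpl22l1 held 23.4%, 27.8% and 27.1% of its pair with Rpl22, whose own log2 fold change was -0.39 for LIF (limma, adjusted p = 0.000616), whereas Rpl22l1 had -0.05 (adjusted p = 0.595). Rps4l, annotated as a transcribed pseudogene, stayed at 25.4% to 26.2% of its pair with Rps4x. Rpl10l held 2.28% to 2.67% of its pair with Rpl10, and Rpl3l at most 0.12% of its pair with Rpl3. The shares are descriptions with no test of their own, and their size depends on the annotated exon lengths of both genes.

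Genes whose loss of 1 allele causes Diamond-Blackfan anemia, a failure of red cell formation, include several members. Rps10 had a log2 fold change of -0.31 for LIF (limma, adjusted p = 0.000384) and -0.26 for OSM, and Rps19 had -0.18 (adjusted p = 0.00644) and -0.13. Rps7, Rps24, Rps26 and Rpl35a did not pass for LIF, and Rps7 was lower with OSM, at -0.12 (adjusted p = 0.0341). Rpl5 and Rpl11, which bind Mdm2 when they are free of the ribosome, had -0.14 and -0.19 for LIF and -0.23 and -0.20 for OSM. Rpl10, part of the site where the subunits are joined, had -0.16 and -0.13.

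The reads of several members were split with copies in a way that differed between the groups. A copy was taken as an annotated gene elsewhere in the genome with at least 100 distinct 31-base words, at least 25% of them shared with the member; 76 members had 1 or more in the deposited table, 501 copies in all. This comparison was chosen after the values were seen. Copies held 10.3% and 9.84% of the reads of members and copies together without cytokine, 7.81% in both LIF libraries and 7.81% and 7.88% with OSM. Processed pseudogenes of all kinds took 2.01% and 1.94% of recovered reads without cytokine and 1.28% to 1.32% in the others.

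For Rpl34, whose sequence stands above beside Rpl34-ps1, copies held 96.4% and 96.5% of the reads without cytokine, 49.4% and 50.8% with LIF and 50.1% and 51.1% with OSM. In reads, Rpl34 had 558 and 430 in the -LIF libraries while its copies had 14822 and 11987. With LIF, the gene had 6836 and 6971 reads and the copies 6676 and 7184. The gene and its copies thus moved in opposite directions, and when their reads were added the log2 fold change was 0.16 for LIF (limma, adjusted p = 0.0421) and 0.20 for OSM, against 3.90 and 3.93 for the gene alone.

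Rpl30 copies held 81.0% and 79.8% without cytokine and 34.6% to 36.7% in the other libraries, and the log2 fold change with copies was 0.31 for either cytokine (limma, adjusted p = 0.00156 and 0.0015). Rplp0 copies held 51.7% and 51.2% against 25.1% to 26.4%, and the log2 fold change with copies was 0.17 for LIF. For Rpl29 the copies held 89.4% and 85.7% against 28.7% to 30.6%. Its log2 fold change with copies was 1.74 for LIF (limma, adjusted p = 2.77e-05) and 1.79 for OSM. The copies of Rpl29 did not all move one way. Gm13841 had 272 and 209 TPM without cytokine and 136 to 177 in the others, but Gm6344 had 4.39 and 3.34 against 226 to 287.

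Of the 76 members with a copy, 21 had copies that held at least 10% of the reads in at least 1 group. For 8 of these 21 the share without cytokine was at least 1.5 times that in either other group without overlap of libraries: Rpl34, Rpl29, Rpl30, Rplp0, Rpl3, Rps13, Rpl15 and Rpl11. Copies of Rpl3 held 42.1% and 39.2% without cytokine and 21.2% to 23.7% in the others, and its log2 fold change moved from 0.36 to -0.04 for LIF and from 0.25 to -0.12 for OSM when copies were added. For Rpl15 it moved from -0.40 to -0.65 and for Rpl11 from -0.19 to -0.39 for LIF. Since these 8 were chosen for their copy share, a lower value with copies follows from the choice. For the other 65 members, copies held less than 10% or were not in the table.

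**Figure D4:**
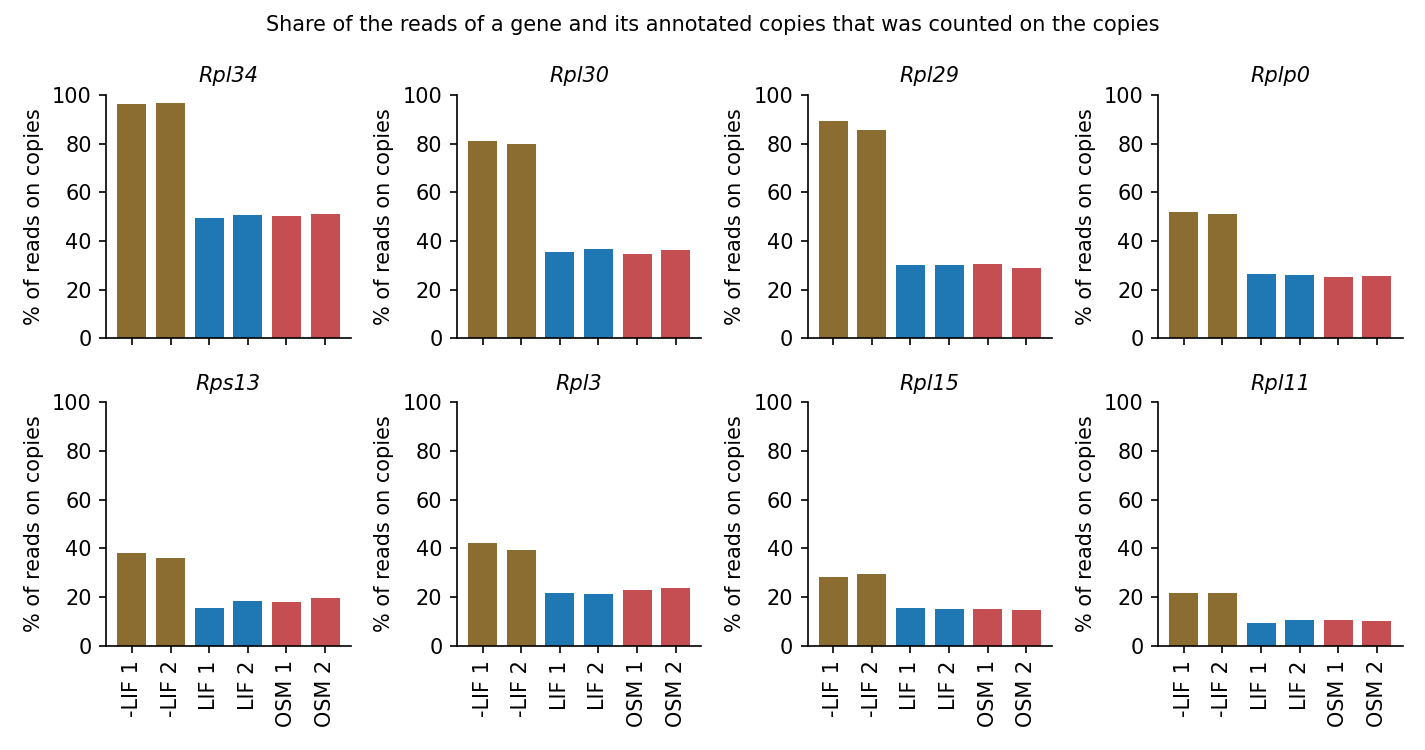
Percent of the recovered reads of a gene and its annotated copies that was counted on the copies, for 8 members in each of the 6 libraries. Both -LIF libraries are above the 4 others in every panel, at 96.4% and 96.5% against 49.4% to 51.1% for Rpl34.

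The values of Rpl37a, Rpl7 and Rpl39l were much the same with copies. Copies held 1.9% to 2.8% of the reads of Rpl37a and 1.3% to 1.8% of those of Rpl7, and Rpl39l had none in the table. With copies added their log2 fold changes for LIF were -1.59, -1.18 and -2.54, as before. Rpl7l1 stayed at 0.99. Over all members, 14 were higher and 39 lower with LIF in the fit with copies, of 83 tested (42.9% and 25.9% of all genes then tested), because the pseudogene members Rpl6l, Rpl32l and Rps12l1 count as copies in that fit. The ratio of large subunit and stalk to small subunit was then 1.92 in both -LIF libraries and 1.68 to 1.70 in the others. Whether the reads on copies came from the copies or from the genes was not tested.

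**Figure D5:**
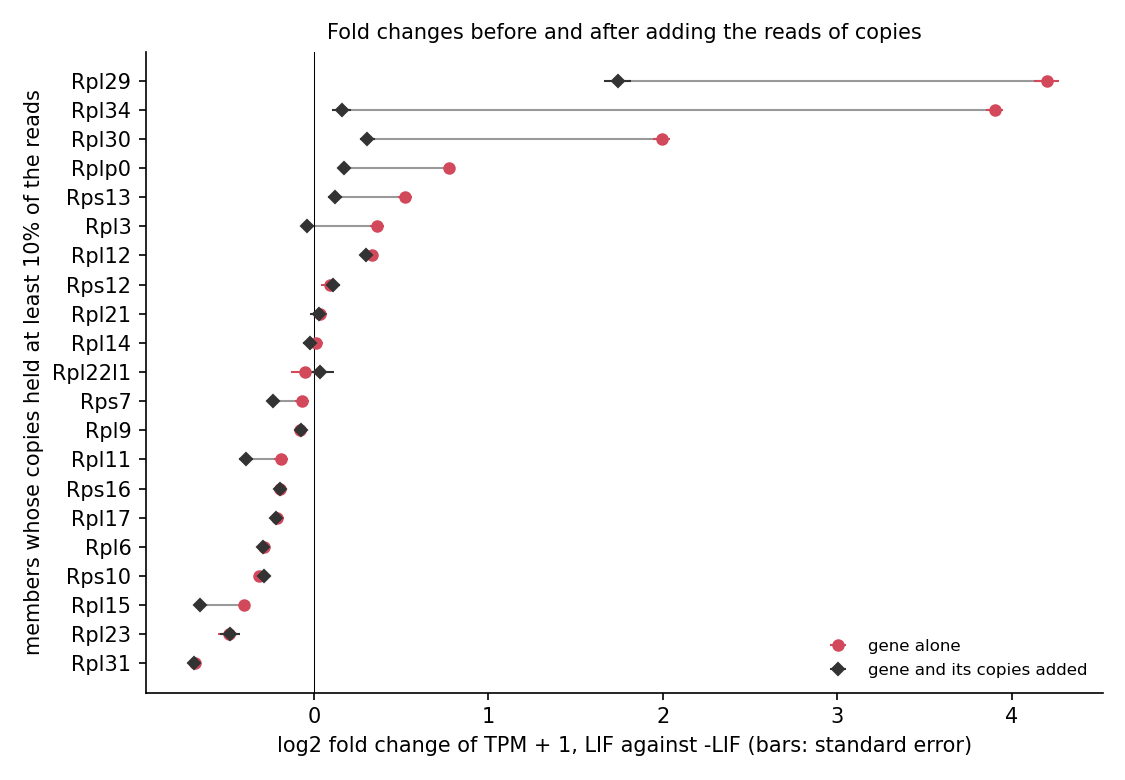
Log2 fold change in LIF against -LIF for the 21 members whose copies held at least 10% of the reads, for the gene alone (circles) and with the reads of its copies added (diamonds), with standard errors. Rpl34 moves from 3.90 to 0.16 and Rpl30 from 1.99 to 0.31, while Rpl12, Rpl31 and most others stay in place.

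Between OSM and LIF groups no member passed the test with limma, in either direction, where 0.463% of all genes were higher and 0.129% lower. At an unadjusted p under 0.05 there were 5 members, 3 higher and 2 lower. The share of all genes at that unadjusted threshold is not given, so nothing about the members is read from this count. Rescaled by the median ratio (0.442% and 0.14% of all genes) or with copies added (0.483% and 0.132%), the limma test called none either, and none changed at least 2-fold (0.0323% and 0.0485%). Limma's voom on recovered reads called 1 higher, Rpl27, and 5 lower, Rpl3, Rpl4, Rpl5, Rpl17 and Rpl38, against 5.26% and 2.56% of all genes; Rpl4 and Rpl17 are named after their values were seen. The member with the lowest adjusted p in the fit of TPM was Rpl27, at 993 and 1002 TPM with OSM and 886 and 910 with LIF, with a log2 fold change of 0.15 ± 0.03 (limma, adjusted p = 0.114). Apart from the pseudogene Rpl32l, at 6.20 and 5.58 TPM against 2.40 and 3.61, the 85 other members differed by at most 0.20 on the log2 scale. The median of the members was -0.01 and that of all genes 0.01. Libraries of the 2 groups did not overlap for 44 members, against 47.1% of all genes.

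Members were also compared with their own mean level, each library being centred on the mean log2 level of the 83 members with a mean of at least 10 TPM. Which members count as higher or lower is then set by where that mean lies, and the mean includes Rpl29, Rpl34 and Rpl30. From -LIF to LIF, 20 members rose and 32 fell relative to it past the threshold, but 38 and 25 with copies added, so no direction is read from the split. Shares of all genes in this fit are not given, so these counts say nothing about members against other genes. Relative to this level, Rpl37a had a log2 fold change of -1.53 and Rpl7 of -1.12 for LIF.

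Ribosomal proteins whose symbols fall outside the rule were measured alongside. Rps3a1 had 910 and 870 TPM without cytokine, 2169 and 2199 with LIF and 2178 and 2107 with OSM, a log2 fold change of 1.29 for LIF (limma, adjusted p = 8.92e-06). Its copies held 73.7% and 74.5% of the reads without cytokine and 36.3% to 37.5% in the others, and its log2 fold change was 0.01 with copies added. Fau, which is made as a fusion with a ubiquitin-like protein, had -0.18 for LIF (limma, adjusted p = 0.0119) and -0.09 for OSM (adjusted p = 0.114). Rpl36al had -0.44 and Rack1, a signalling scaffold on the small subunit, -0.39 for LIF, and both passed the test.

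The machinery that makes ribosomes was examined with lists drawn up from general knowledge. Of 52 ribosome biogenesis factors, 36 were higher and 12 lower with LIF, with a median log2 fold change of 0.28 against 0.17 over all genes. With the median ratio these became 25 higher and 15 lower. All these lists are to be read against the 42.2% of all genes that were higher and 25.9% that were lower with LIF, or 34.5% and 33.0% with the median ratio. Nat10, an RNA acetyltransferase of the small subunit precursor, had the highest change (1.26) and Pno1, another small subunit factor, the lowest (-0.90). Of 15 genes of RNA polymerase I, which transcribes ribosomal RNA, and its factors, 12 were higher and 2 lower, with a median of 0.49, and 10 and 3 with the median ratio. Znrd1, a polymerase subunit, was highest at 1.19 and Polr1e lowest at -0.41. Of 14 genes of mTORC1 and Larp1, which control translation of ribosomal protein mRNAs, 10 were higher and 1 lower, with a median of 0.51, and 10 and 2 with the median ratio. Rps6kb2 was highest at 1.56, and Rptor lowest at -0.10 without passing. Larp1, named after its value was seen, was the lower one, also at -0.10.

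Of 41 translation factors 16 were higher and 19 lower, with a median of -0.02, and 13 and 23 with the median ratio. Eif1 was highest at 1.13 and Eif3d lowest at -0.68. Of 78 proteins of the mitochondrial ribosome 25 were higher and 28 lower, with a median of 0.01, but 16 and 39 with the median ratio. Among them Mrps18b was highest at 1.26 and Mrpl14 lowest at -1.31. Of 13 noncoding hosts of small nucleolar RNAs, 10 were higher and 1 lower, with a median of 0.52, and 8 and 2 with the median ratio. Snhg12 was highest at 2.44. With OSM, where 42.9% of all genes were higher and 25.4% lower, 35 of 52 biogenesis factors were higher and 12 lower (27 and 16 with the median ratio). The counts were 11 and 1 of 15 polymerase I genes (10 and 3), 10 and 0 of 14 mTORC1 genes (9 and 3), and 15 and 19 of 41 translation factors (12 and 25). They were 26 and 27 of 78 mitochondrial ribosomal proteins (17 and 38), and 9 and 1 of 13 snoRNA hosts (8 and 2).

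Markers of other cell types moved with the same comparison. Of 18 fibroblast markers 16 were higher with LIF and 2 lower, and their summed level was 132 to 141 TPM without cytokine, 487 to 494 with LIF and 681 to 690 with OSM. All 6 simple epithelium markers were lower, from 2799 to 2823 TPM down to 325 to 342 with LIF and 313 to 323 with OSM. All 8 primitive streak and mesoderm markers were lower, from 173 to 178 TPM down to 3.91 to 5.94 with LIF and 4.82 to 5.37 with OSM. Primitive endoderm markers summed to 115 to 116, 211 to 215 and 202 to 203 TPM, and neural markers to 60.0 to 62.1, 69.2 to 72.4 and 76.1 to 78.5. No marker of these lists was at 0 in both libraries of a group. Their part in the ribosomal protein changes was not tested.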

How the data were processed

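RNA-seq data comprised 6 mESC libraries, 2 in each of 3 groups (-LIF, LIF and OSM). Per the labels and the paper's methods, the authors trimmed reads with Trimmomatic, aligned them to mm10 with Hisat2, counted them with featureCounts and deposited TPM. The annotation, strand setting and handling of reads with several matches are not given in the sources used here.

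Of the symbols, 28404 (99.4%) were matched once to GENCODE M21 (GRCm38), and whole reads were recovered from TPM and exon length (95.3% to 95.5% of values whole within 0.02). Of the member values, 469 of 516 were whole. The main test was limma 3.58.1 in R 4.3.3 on log2(TPM + 1) with eBayes trend, for genes reaching 1 TPM in 2 or more libraries, with all groups in 1 fit (residual degrees of freedom 3, total 5.33) and Benjamini-Hochberg adjustment. The authors used DESeq2 on counts, which was not repeated here. An exact p for 2 libraries against 2 cannot pass 0.05, so p-values rest on the model. Replicates differed beyond sampling noise, the chi-square averaging 2.03 to 3.49 over all genes and 8.90 to 20.5 over members.

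The members and gene lists were chosen with earlier results of these data known. Members named are the paralog pairs, the stalk genes and Rpsa, Diamond-Blackfan and regulatory genes, the 5 highest and 5 lowest by level and by change in each comparison, and others where stated; some of these are not reported here. Alternatives were another pseudocount, filter or scaling, voom on recovered reads, a replicate block, each library left out and, chosen after seeing the data, the reads of copies added to their gene.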

Additional observations from a re-analysis of the deposited data

How the results depend on the processing

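With 2 libraries a group, each count rests on a spread shared by all groups. Median-ratio scaling gave 63 lower members in LIF-ESCs (median -0.26), and 8 higher and 66 lower in OSM-ESCs (median -0.28). It turned Rpsa (-0.025 for LIF and -0.029 for OSM) and Rplp1 (-0.043) in OSM-ESCs. Voom gave 64 lower for either cytokine, with medians of -0.22 and -0.23, where 32.8% (LIF) and 32.9% (OSM) of all genes were lower. In OSM against LIF it gave 1 higher and 5 lower (5.26% and 2.56% of all genes). The member sums became 105320, 85612 and 84799 TPM with the median ratio, and 101500, 93036 and 92767 without mitochondrial genes, for -LIF, LIF and OSM.

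Adding the reads of copies, an alternative chosen after seeing the data, turned Rpl3 to -0.042 for LIF and -0.12 for OSM. It raised the members higher relative to the ribosomal protein level to 38 and 37, counts that are not set against all genes. Copies and median ratio together left 7 higher and 59 lower in LIF-ESCs (median -0.27), and 5 higher and 65 lower in OSM-ESCs (median -0.29). Shares of all genes are not given for this combined setting. Members named after their values were seen, such as Rps13, are left aside here. The combined setting turned Rpl3 (-0.22 and -0.30), Rpl34 (-0.014) and Rplp0 (-0.0027) for LIF, Rpsa (-0.022 for LIF and -0.024 for OSM), and Rplp1 (-0.048) for OSM. The cause was not tested.

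Leaving out 1 library gave 13 to 15 higher and 33 to 38 lower in LIF-ESCs, 12 to 13 and 35 to 39 in OSM-ESCs, and 0 in OSM against LIF; a group left with 1 library is assumed to vary like the others. Replicate numbers did not pair the libraries (correlations of -0.04, -0.02 and 0.03). With a replicate block, 14 were higher and 35 lower for LIF and 12 and 36 for OSM. Shares of all genes are not given for the fits in this paragraph, so these counts say nothing about members against other genes. Of 52 named results past the threshold, 13 lost the call in at least 1 setting and 7 changed sign.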

Other observations

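Copies of members did not all follow the pattern of Rpl34-ps1 and Gm12191. Gm10260, a copy of Rps18, had 4.09 and 5.17 TPM without cytokine, 114 and 106 with LIF and 151 and 147 with OSM, and Gm11361, another copy of Rps18, had 28.4 and 24.8, 97.3 and 90.4, and 128 and 117. Rps18 itself stood at -0.05 on the log2 scale with LIF (limma, adjusted p = 0.171). Rps2-ps10 had 24.7 and 48.9 TPM without cytokine, 109 and 119 with LIF and 156 and 167 with OSM.

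Gm7536, a copy of Rpl27a, separated the cytokines, with 393 and 368 TPM with LIF, 167 and 172 with OSM and 230 and 187 without cytokine. The abundant copies Gm10275 of Rpl12, Rps12-ps3 of Rps12 and Rpl14-ps1 of Rpl14 lay between 644 and 832 TPM in every library, and their log2 fold changes for LIF were 0.13, 0.18 and -0.14 (limma, adjusted p = 0.0201, 0.00745 and 0.0176). These genes were named after their values were seen, and the cause was not tested.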
